A study of Homo sapiens with 6 samples.

Results

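The enzymes that make serine and move its carbon unit through folate were measured as mRNA in LN229 cells after knockdown of GDH1. They comprise 10 genes, chosen by name from the pathway: PHGDH, PSAT1 and PSPH for serine synthesis, SHMT1 and MTHFD1 for the cytosolic folate branch, and SHMT2, MTHFD2, MTHFD2L, MTHFD1L and ALDH1L2 for the mitochondrial branch. All 10 were found among the 24976 symbols of the count table, and all 10 passed the filter on low counts that left 15638 symbols for testing. LN229 is an established human glioblastoma line, grown here in medium with serum. In the GDH1 siRNA group (labels siRNA1 to siRNA3, genotype GDH1 gene knockdown) cells received a transfected small interfering RNA (siRNA) against GDH1 and were incubated for 24 h. For the NC group (labels NC1 to NC3, genotype WT) the labels speak of wild-type cells while the protocol lists an NC mixture, so whether these cells were transfected is unclear. Each group had 3 libraries of total RNA, which the series calls biological replicates. The results describe 1 cell line at 1 time, and it is not stated whether 1 siRNA or several made the 3 knockdowns.

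Serine is made from the glycolytic intermediate 3-phosphoglycerate. PHGDH oxidises it, PSAT1 takes an amino group from glutamate and leaves 2-oxoglutarate, and PSPH removes the phosphate. SHMT enzymes then split serine into glycine and a carbon unit bound to tetrahydrofolate, which feeds purine, thymidylate and methionine synthesis. Mitochondria and cytosol hold parallel sets of these folate enzymes: the mitochondrial set makes formate, which the cytosolic set takes up. GDH1, the product of GLUD1, interconverts glutamate and 2-oxoglutarate, the same pair of metabolites that PSAT1 uses.

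Libraries held 33355207 to 35619614 counts in the GDH1 siRNA group and 31201100 to 34452724 in the NC group. GLUD1, the target, had 20.9, 26.2 and 26.7 CPM (counts per 1000000, with library sizes scaled by TMM, the trimmed mean of M values) in GDH1 siRNA libraries, against 88.3, 85.5 and 85.7 CPM in NC libraries, a log2 fold change of -1.82 (standard error, SE, 0.10). Across all tested symbols 26.1% were called (adjusted p under 0.05 in the quasi-likelihood test of edgeR), 13.0% higher and 13.1% lower. Of 9 glial and glioma markers, 8 reached 1 CPM in some library, and GFAP did not; they summed to 6165 to 7093 CPM in GDH1 siRNA libraries and 5807 to 5991 CPM in NC libraries, most of it VIM. Single markers went in different directions: SOX2 was at 137.1, 128.4 and 125.6 CPM in GDH1 siRNA libraries, against 73.2, 77.4 and 76.7 CPM in NC libraries. S100B was at 195.1, 187.0 and 207.4 CPM in GDH1 siRNA libraries, against 416.9, 444.6 and 429.0 CPM in NC libraries, and OLIG2 was lower in GDH1 siRNA libraries too. All 5 leukocyte and all 4 epithelial markers stayed under 1 CPM, of 3 endothelial markers VWF passed it, and CDH5, KRT5 and CDH1 had 0 counts in every library. The 3 neuronal markers, among them SYT1 and SNAP25, summed to 39.6 to 49.4 CPM in GDH1 siRNA libraries and 50.6 to 53.9 CPM in NC libraries. The part of these markers in the results was not tested.

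Of the 10 enzymes, 7 fell, 1 rose and 2 did not pass. The 7 that fell were PHGDH, PSAT1, PSPH, SHMT1, SHMT2, MTHFD2 and ALDH1L2, against a background of 13.1% of all tested symbols called lower. MTHFD1L rose, against a background of 13.0% called higher, and MTHFD1 and MTHFD2L did not pass. The median log2 fold change was -0.58 over the 10 enzymes and -0.0033 over all tested symbols. In single libraries, the GDH1 siRNA values lay all below the NC values for the same 7 genes (20.5% of all tested symbols) and all above them for 2 genes, MTHFD1L and MTHFD1 (21.6% of all tested symbols). Groups without overlap in either direction made up 42.0% of all tested symbols. Together the 10 genes took 0.0891 ± 0.00132% of the counts of GDH1 siRNA libraries and 0.137 ± 0.00342% of the counts of NC libraries (mean ± SD, n = 3 each). RNA was measured in bulk, so a lower level in every cell and a smaller share of expressing cells cannot be told apart.

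**Figure D1:**
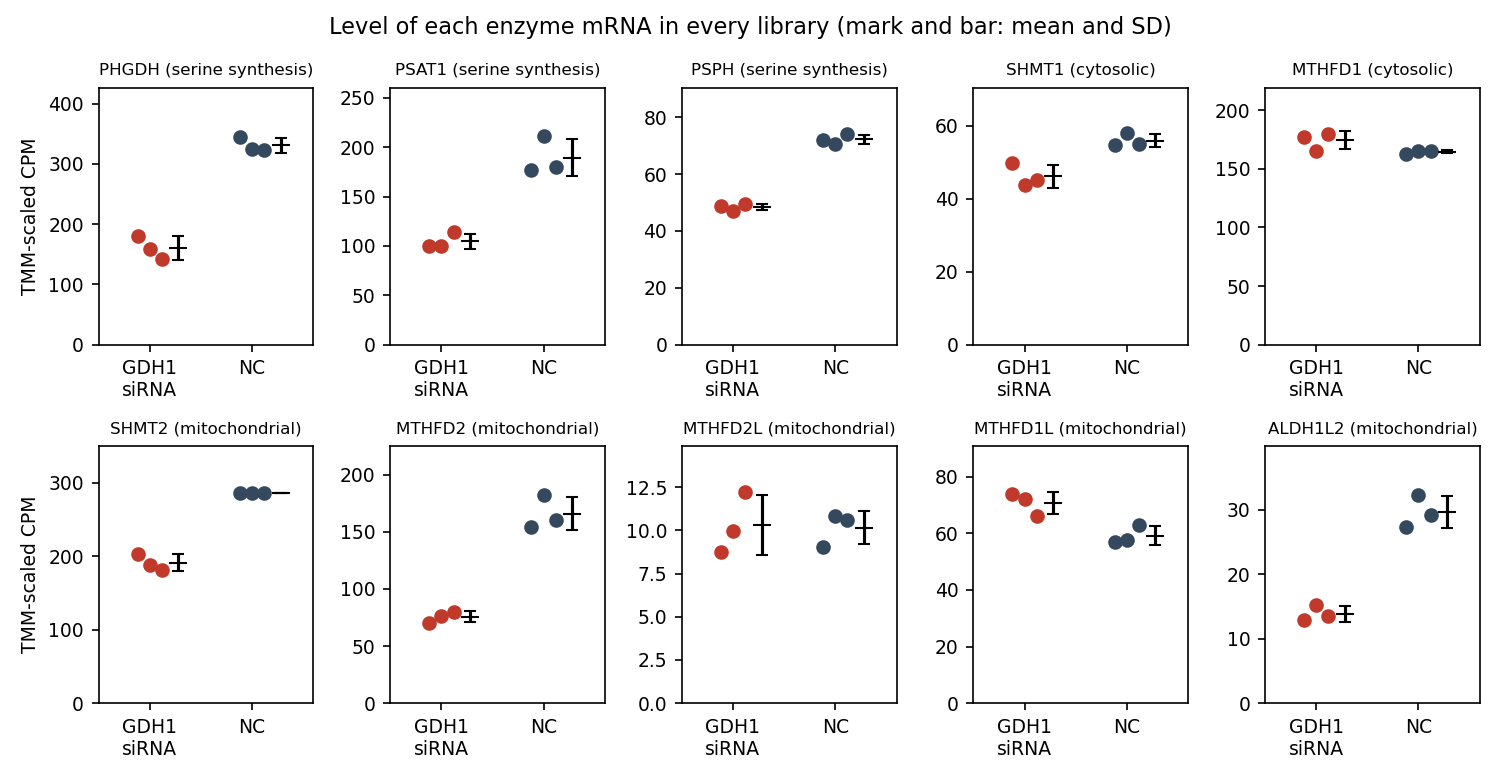
Each panel gives 1 enzyme mRNA on a linear axis from 0 in TMM-scaled CPM, with a point per library, GDH1 siRNA in red on the left and NC in dark blue on the right, and the mean with its SD (n = 3) beside the points. PHGDH, PSAT1, PSPH, SHMT1, SHMT2, MTHFD2 and ALDH1L2 lie lower in every GDH1 siRNA library, MTHFD1 and MTHFD1L lie higher, and the groups of MTHFD2L overlap.

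Promoter sequence was available for 7 of the 10 genes in the RefSeq table of GRCh38.p14 (250 bases before to 50 after the start that the table takes for each gene, 5′ to 3′ on the gene's own strand). For MTHFD1L and MTHFD2L that start lies inside the gene span given with their values, so their windows are not at the outermost annotated end of the gene. PSPH, SHMT2 and ALDH1L2 had no entry. The 4 promoters below are those of the 3 genes with entries that fell most and of the 1 gene that rose. Capitals mark matches on either strand to TGATGNAA, the core bound by ATF4 with its partners, or to CCAAT, the box bound by NF-Y. PHGDH is at chr1:119711684-119711983, PSAT1 at chr9:78296875-78297174, MTHFD2 at chr2:74198365-74198664 and MTHFD1L at chr6:150866236-150866535, all on the plus strand.
PHGDH: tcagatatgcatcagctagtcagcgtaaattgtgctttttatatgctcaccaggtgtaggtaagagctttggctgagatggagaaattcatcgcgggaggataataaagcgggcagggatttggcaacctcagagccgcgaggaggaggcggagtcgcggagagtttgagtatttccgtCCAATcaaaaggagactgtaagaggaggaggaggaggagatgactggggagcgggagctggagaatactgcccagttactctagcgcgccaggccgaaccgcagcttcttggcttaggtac
PSAT1: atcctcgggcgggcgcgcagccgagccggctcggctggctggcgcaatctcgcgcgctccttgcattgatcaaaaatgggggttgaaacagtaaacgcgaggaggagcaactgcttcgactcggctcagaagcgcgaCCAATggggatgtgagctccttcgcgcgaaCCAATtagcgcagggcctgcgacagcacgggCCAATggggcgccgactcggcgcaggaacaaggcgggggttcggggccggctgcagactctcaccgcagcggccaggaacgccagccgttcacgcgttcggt
MTHFD2: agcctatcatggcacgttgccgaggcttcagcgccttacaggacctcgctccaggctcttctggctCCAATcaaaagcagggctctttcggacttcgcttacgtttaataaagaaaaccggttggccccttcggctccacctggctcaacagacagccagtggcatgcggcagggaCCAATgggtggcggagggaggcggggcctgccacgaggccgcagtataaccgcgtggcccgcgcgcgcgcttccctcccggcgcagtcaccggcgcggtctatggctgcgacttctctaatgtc
MTHFD1L: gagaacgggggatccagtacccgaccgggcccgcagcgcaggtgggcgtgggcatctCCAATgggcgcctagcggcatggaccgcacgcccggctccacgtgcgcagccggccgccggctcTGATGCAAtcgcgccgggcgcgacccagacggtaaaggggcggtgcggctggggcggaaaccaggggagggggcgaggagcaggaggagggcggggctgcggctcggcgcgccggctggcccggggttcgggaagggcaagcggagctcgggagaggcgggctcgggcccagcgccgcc

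Both strands were searched for TGATGNAA, CCAAT, the E-box CACGTG and the antioxidant response core TGACNNNGC, and 0 matches overlapped each other. TGATGNAA was in 1 of the 7 windows, that of MTHFD1L, where it read TGATGCAA beginning at position -129 from the table's start. It was in 3.67% of the 27305 promoter windows of the table. CCAAT was in 6 of the 7 windows, all but that of MTHFD2L, and in 35.7% of all windows. PSAT1 had 3 CCAAT boxes, at -113, -83 and -52, MTHFD2 had 2, at -184 and -74, and PHGDH had 1, at -71. CACGTG was in the windows of MTHFD1 and MTHFD1L (7.43% of all windows) and TGACNNNGC in those of MTHFD2 and MTHFD2L (13.6%). The letters of a window say nothing about binding in these cells, and windows of this length leave out introns and distant elements.

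All 3 enzymes of serine synthesis fell (gene positions here and below are in GRCh38.p14). PHGDH (chr1:119711934-119744215), the first enzyme of the pathway, had 181.0, 158.5 and 142.1 CPM in GDH1 siRNA libraries, against 345.3, 324.5 and 322.7 CPM in NC libraries. The highest GDH1 siRNA library was far under the lowest NC library. The level left was 48.5% of that in NC (log2 fold change -1.04, SE 0.09, adjusted p = 8.73e-06, edgeR).

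PSAT1 (chr9:78297125-78330093), the aminotransferase that uses glutamate, had 99.5, 100.4 and 113.7 CPM in GDH1 siRNA libraries, against 177.3, 211.4 and 179.9 CPM in NC libraries. The groups were apart, with NC replicate 2 above the other two NC libraries. The log2 fold change was -0.86 (SE 0.09, adjusted p = 4.37e-05, edgeR). PSPH (chr7:56011064-56051444), the phosphatase of the last step, had 48.8, 47.1 and 49.3 CPM in GDH1 siRNA libraries, against 72.0, 70.7 and 74.0 CPM in NC libraries. The groups were far apart, with coefficients of variation of 2.36% in GDH1 siRNA and 2.32% in NC libraries. The log2 fold change was -0.58 (SE 0.07, adjusted p = 2.10e-04, edgeR). The 95% intervals of the log2 fold changes ran from -1.23 to -0.85 for PHGDH, -1.05 to -0.67 for PSAT1 and -0.74 to -0.42 for PSPH. PHGDH and PSAT1 thus overlapped in their intervals and PHGDH and PSPH did not; the differences between the 3 fold changes were not tested.

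Among the mitochondrial folate enzymes, 3 fell, 1 rose and 1 did not pass. MTHFD2 (chr2:74198615-74217565), the dehydrogenase and cyclohydrolase found mostly in embryonic and transformed cells, had 70.3, 76.3 and 79.9 CPM in GDH1 siRNA libraries, against 154.4, 182.1 and 160.7 CPM in NC libraries. Every GDH1 siRNA library was far below every NC library. The log2 fold change was -1.13 (SE 0.08, adjusted p = 3.57e-06, edgeR), with 45.6% of the NC level left. ALDH1L2 (chr12:105019790-105084458) oxidises formyl-tetrahydrofolate and yields NADPH in mitochondria. It had 12.9, 15.2 and 13.6 CPM in GDH1 siRNA libraries, against 27.4, 32.3 and 29.3 CPM in NC libraries (log2 fold change -1.09, SE 0.11, edgeR adjusted p = 3.10e-05). Again no library of one group reached the other group.

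SHMT2 (chr12:57229711-57234935), the mitochondrial serine hydroxymethyltransferase, had 203.8, 188.3 and 181.0 CPM in GDH1 siRNA libraries, against 286.2, 285.7 and 286.4 CPM in NC libraries. NC libraries differed by under 1 CPM, and all GDH1 siRNA libraries were lower (log2 fold change -0.58, SE 0.07, adjusted p = 1.14e-04, edgeR). MTHFD1L (chr6:150865702-151101887), the mitochondrial synthetase that releases formate, went the other way. It had 73.9, 72.0 and 66.2 CPM in GDH1 siRNA libraries, against 56.8, 57.5 and 62.9 CPM in NC libraries (log2 fold change 0.26, SE 0.08, adjusted p = 0.034, edgeR). GDH1 siRNA replicate 3 was close to NC replicate 3. The call of MTHFD1L was lost without GDH1 siRNA replicate 2 (adjusted p = 0.13) and without NC replicate 1 (0.13), 2 (0.11) or 3 (0.057), which left 0 of the 10 genes called higher.

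MTHFD2L (chr4:74114560-74303099), a paralog of MTHFD2 that carries the same reactions in mitochondria, had 8.75, 9.97 and 12.2 CPM in GDH1 siRNA libraries, against 9.04, 10.8 and 10.6 CPM in NC libraries. The groups overlapped, and the log2 fold change of 0.02 had a 95% interval of -0.30 to 0.34 (adjusted p = 0.92, edgeR). That interval lies above the interval of MTHFD2, which ran from -1.32 to -0.95.

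Of the cytosolic enzymes 1 fell and 1 did not pass. SHMT1 (chr17:18327873-18363550), the cytosolic serine hydroxymethyltransferase, had 49.7, 43.6 and 45.1 CPM in GDH1 siRNA libraries, against 54.8, 58.0 and 54.9 CPM in NC libraries. The groups did not overlap, and the log2 fold change was -0.28 (SE 0.08, adjusted p = 0.029, edgeR). The call was lost without GDH1 siRNA replicate 2 (adjusted p = 0.14) and without NC replicate 1 (0.084), 2 (0.11) or 3 (0.092), which left 6 of the 10 genes called lower. SHMT1 was the 1 enzyme with 2 rows in the table. The row with more counts was at -0.40 (adjusted p = 0.030) and its copy at -0.09 (adjusted p = 0.74) when rows were kept apart, and how reads were divided between both rows is unknown, so the value of SHMT1 is uncertain.

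MTHFD1 (chr14:64388353-64460025), the cytosolic enzyme that carries all 3 folate interconversions on 1 protein, had 177.4, 165.6 and 179.9 CPM in GDH1 siRNA libraries, against 163.0, 164.9 and 165.6 CPM in NC libraries. GDH1 siRNA replicate 2 was nearly level with NC replicate 3, and the gene did not pass (log2 fold change 0.08, 95% interval -0.06 to 0.23, adjusted p = 0.38, edgeR). Its locus shares 10920 bases with ZBTB25 on the opposite strand, a gene called higher (log2 fold change 0.42, adjusted p = 0.012) at 21.2 ± 1.19 CPM in GDH1 siRNA and 15.9 ± 1.18 CPM in NC libraries (n = 3 each). Without a stated strand setting, reads from the shared stretch cannot be told apart. The other coding genes that overlap these enzymes share 33 bases with SHMT2 (NDUFA4L2), 184 bases with SHMT1 (SMCR8) and 1324 bases with MTHFD2 (SLC4A5), and they did not pass the test. PSAT1, PSPH, SHMT1, MTHFD1 and MTHFD2 have annotated pseudogenes, and reads from such copies are a further uncertainty in their values.

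**Figure D2:**
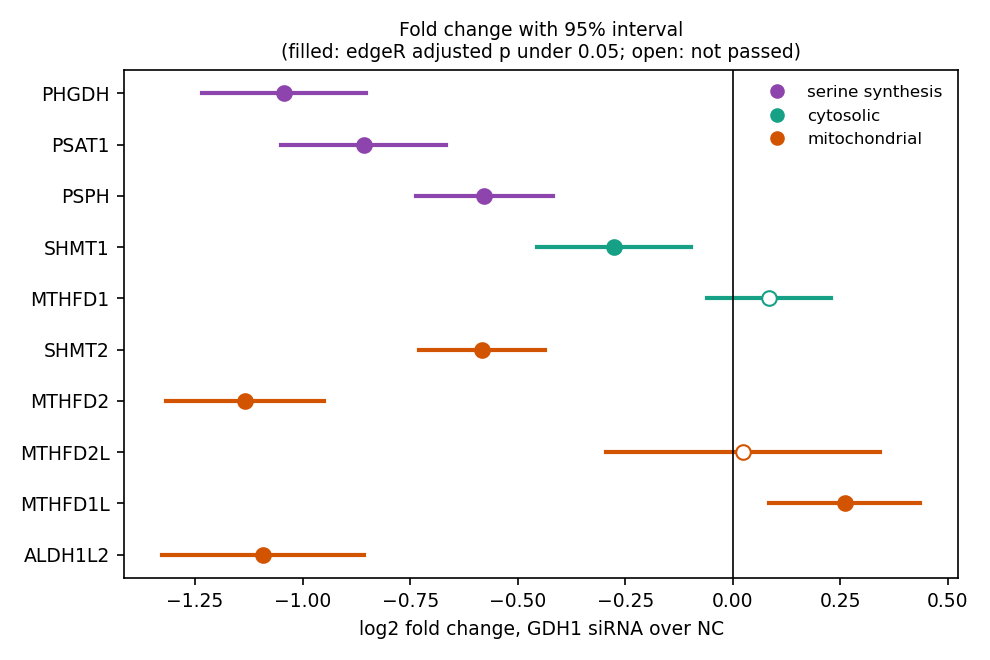
Points give the log2 fold change of each enzyme mRNA, GDH1 siRNA over NC, with the 95% interval of the edgeR fit as a line, coloured by pathway branch, and open points did not pass an adjusted p of 0.05. The intervals of PHGDH, PSAT1, MTHFD2 and ALDH1L2 include -1, while those of MTHFD1 and MTHFD2L include 0.

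The mitochondrial and cytosolic isoenzymes were set against each other within each library, where library size cancels; these count ratios are not corrected for gene length, so only their difference between groups is read. Counts of SHMT2 were 4.10, 4.32 and 4.01 times those of SHMT1 in GDH1 siRNA libraries, against 5.22, 4.93 and 5.21 times in NC libraries. The groups did not overlap, and the mean log2 ratio differed by -0.31 (SE 0.04). With only the SHMT1 row that held more counts, the difference was -0.19 and the groups overlapped (exact permutation p = 0.2). Counts of MTHFD2 were 0.397, 0.461 and 0.444 times those of MTHFD1 in GDH1 siRNA libraries, against 0.947, 1.10 and 0.971 times in NC libraries. Here too the groups did not overlap, and the log2 ratio differed by -1.21 (SE 0.09).

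Counts of MTHFD1L were 0.417, 0.435 and 0.368 times those of MTHFD1 in GDH1 siRNA libraries, against 0.349, 0.349 and 0.380 times in NC libraries. These groups overlapped, with a difference of 0.18 (SE 0.08) on the log2 scale. Two-sided exact permutation tests over libraries gave p = 0.1 for the first 2 ratios, the smallest that 3 libraries against 3 allow, and p = 0.2 for MTHFD1L over MTHFD1 (0.15, 0.15 and 0.20 when adjusted over the 3 pairs), so none could pass 0.05. ALDH1L1, the cytosolic counterpart of ALDH1L2, had 0 counts in 5 libraries and 2 in NC replicate 3 and was too low for a ratio. The mean log2 CPM of SHMT2, MTHFD2, MTHFD1L and ALDH1L2 minus that of SHMT1 and MTHFD1 was -0.63, -0.43 and -0.58 in GDH1 siRNA libraries, against -0.05, 0.02 and 0.01 in NC libraries. The difference between groups was -0.54, and -0.39 without ALDH1L2.

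**Figure D3:**
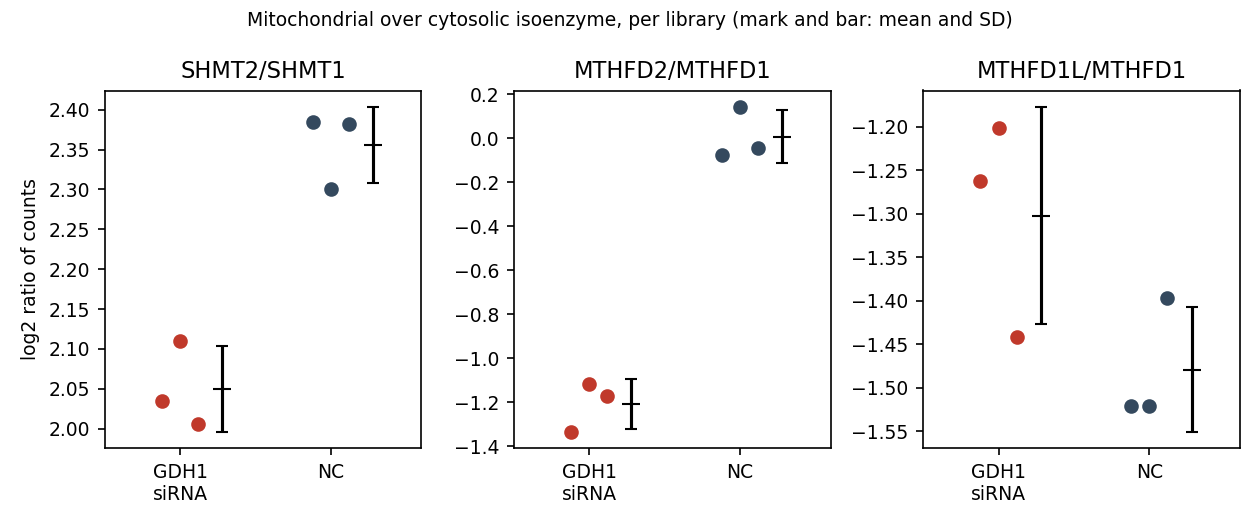
Each panel gives the log2 ratio of the counts of a mitochondrial enzyme to its cytosolic counterpart in every library, GDH1 siRNA in red on the left and NC in dark blue on the right, with the mean and SD (n = 3), and each panel has its own axis range. SHMT2 over SHMT1 and MTHFD2 over MTHFD1 are lower in all GDH1 siRNA libraries, by 0.31 and 1.21 on average (the first with both SHMT1 rows summed), and MTHFD1L over MTHFD1 overlaps between groups.

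Levels were compared between genes as TMM-scaled CPM per kilobase of the GENCODE reference transcript. In GDH1 siRNA libraries SHMT2 stood first at 75.3 ± 4.58 CPM per kilobase, followed by PHGDH at 62.1 ± 7.55, MTHFD1 at 55.6 ± 2.44 and PSAT1 at 47.8 ± 3.64. In NC libraries PHGDH stood first at 128.0 ± 4.86 CPM per kilobase, followed by SHMT2 at 112.8 ± 0.140, PSAT1 at 86.6 ± 8.69 and MTHFD1 at 52.5 ± 0.425 (n = 3 each). PHGDH and MTHFD1 overlapped in GDH1 siRNA libraries, while in NC libraries PHGDH lay above MTHFD1 in every library.

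The middle of the order held MTHFD2, PSPH, SHMT1 and MTHFD1L. In GDH1 siRNA libraries PSPH was at 22.2 ± 0.525 CPM per kilobase, and MTHFD1L (19.6 ± 1.12), SHMT1 (18.7 ± 1.30) and MTHFD2 (16.9 ± 1.08) followed. PSPH was apart from MTHFD1L, while MTHFD1L overlapped SHMT1 and SHMT1 overlapped MTHFD2. In NC libraries MTHFD2 came before them at 37.2 ± 3.25 CPM per kilobase, then PSPH (33.2 ± 0.770), SHMT1 (22.7 ± 0.733) and MTHFD1L (16.4 ± 0.924), with no overlap between neighbours. MTHFD2L and ALDH1L2 were lowest, at 4.48 ± 0.763 and 1.84 ± 0.162 CPM per kilobase in GDH1 siRNA libraries and 4.41 ± 0.420 and 3.93 ± 0.329 in NC libraries, where they overlapped. The order depends on the transcript length taken for each gene: MTHFD1 has a reference transcript of 3136 bases and a longest one of 6814. With the longest transcript MTHFD1 was at 25.6 CPM per kilobase in GDH1 siRNA libraries and did not overlap PHGDH at 62.1. First place in NC libraries depends on it too. With the mean transcript length SHMT2 stood first there, at 243.1 CPM per kilobase against 223.0 for PHGDH.

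The profiles over the 6 libraries that lay nearest to those of PHGDH and MTHFD2 were found by the root mean square difference of centred log2 CPM among 10199 other well expressed symbols. For PHGDH they were SREBF2, WNK4, EXTL1, KCTD15 and PYROXD2, at 0.037 to 0.052 on the log2 scale. For MTHFD2 they were CHL1, S100B, BCAT1, ASNS and PCTP, at 0.051 to 0.091. Among the folate and serine enzymes themselves ALDH1L2 lay nearest to MTHFD2, at 0.071, where it would take place 3 in that order. PHGDH and MTHFD2 were 0.19 apart, which put PHGDH at place 63 for MTHFD2. The enzyme nearest to PHGDH was ALDH1L2, at place 128, and PSAT1 was at place 230. The distance includes the difference between groups, so genes of similar fold change lie close.

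Around these enzymes, 82 of 93 genes in 9 neighbouring lists could be tested. Of these 82, 19 fell and 19 rose, beside 13.1% and 13.0% of all tested symbols, and their median log2 fold change was 0.03. The lists held serine and glycine breakdown, other folate enzymes, transporters, the methionine cycle, users of folate and of serine, the supply of 3-phosphoglycerate, upstream regulators and amino acid response genes.

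Glycine and folate enzymes outside the 10 moved in both directions. Of 8 tested genes of glycine cleavage and of serine and glycine breakdown, GLDC and DLD rose and GCAT fell. GLDC, the decarboxylase that starts glycine cleavage, was at 18.1 ± 0.668 CPM in GDH1 siRNA and 13.3 ± 0.783 CPM in NC libraries (log2 fold change 0.44, adjusted p = 0.0086, edgeR), and GCAT, a glycine acetyltransferase of mitochondria, had a log2 fold change of -0.67 (adjusted p = 0.0024). DLD, a subunit shared with other dehydrogenase complexes, was at 0.38 (adjusted p = 0.0033). A correction that took out, library by library, any dependence on base composition and transcript size (the GC and length correction) moved some values: GCAT was at -0.42 and DLD at 0.25. Among the other folate enzymes FPGS, which adds glutamate tails to folates, fell (-0.50, adjusted p = 0.019, edgeR). FPGS was not called without NC replicate 1 or 3 or GDH1 siRNA replicate 2, and was at -0.21 with that correction. Thymidylate synthase, TYMS, was at -0.03 (adjusted p = 0.80).

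Of 10 tested genes of folate and serine transport, 3 fell and 1 rose. SLC6A9, a glycine transporter gene, was at 15.4 ± 1.66 CPM in GDH1 siRNA and 32.2 ± 2.90 CPM in NC libraries (log2 fold change -1.07, adjusted p = 5.16e-05, edgeR). SLC1A5, a transporter of glutamine and serine, had a log2 fold change of -0.79 and SFXN2, a sideroflexin of the inner mitochondrial membrane, one of -0.60. SFXN3, another sideroflexin, rose by 0.23 on the log2 scale but lost its call without GDH1 siRNA replicate 2 or any 1 NC library. SFXN1, the mitochondrial serine transporter, was at 0.17 and SLC25A32, the mitochondrial folate carrier, at -0.0094, and neither passed (adjusted p = 0.094 and 0.91).

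In the methionine cycle and transsulfuration 3 of 10 tested genes fell and 0 rose. CBS, which joins serine to homocysteine, was at 10.0 ± 0.0918 CPM in GDH1 siRNA and 31.4 ± 6.39 CPM in NC libraries (log2 fold change -1.65, SE 0.14, adjusted p = 8.73e-06, edgeR). CTH, the next enzyme towards cysteine, had a log2 fold change of -1.06 (adjusted p = 9.61e-04) and MAT1A, at under 2 CPM, one of -1.36. MAT1A lost its call without NC replicate 1. The other 7 tested genes lay between -0.09 and 0.12 and did not pass. CBS has a near-identical copy in recent genome builds, so its count is uncertain.

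In the lists of serine-using lipid genes, folate-using nucleotide genes and genes of 3-phosphoglycerate supply, 0 were called lower. That count changed with the GC and length correction, where the nucleotide gene GART was called lower (-0.22, adjusted p = 1.99e-04, edgeR). Without the correction GART was at -0.16 (adjusted p = 0.12, edgeR). Over all tested symbols 13.1% were called lower and 13.0% higher, and lists this short would hold few lower genes at that share. Of 9 serine-using lipid genes and SERINC family genes 5 rose: SERINC5 (log2 fold change 0.50), PTDSS1 (0.31), SPTLC1 (0.30), SPTLC3 (0.73) and SERINC1 (0.26). PTDSS1 makes phosphatidylserine, and SPTLC1 and SPTLC3 are subunits of the enzyme that joins serine to a fatty acid for sphingolipids. SERINC1 was not called after removal of GDH1 siRNA replicate 2 or 3 or of any 1 NC library, nor SPTLC1 and SPTLC3 after removal of GDH1 siRNA replicate 2 or any 1 NC library. With the GC and length correction SERINC1 was at 0.12 and SPTLC1 at 0.19. Of 6 folate-using nucleotide genes PAICS (0.48, adjusted p = 5.56e-04, edgeR) and ATIC (0.21, adjusted p = 0.046) rose, both enzymes of purine synthesis. ATIC was not called after removal of GDH1 siRNA replicate 2 or 3 or of any 1 NC library. Of 7 glycolytic genes around 3-phosphoglycerate PGK1 (0.69), ENO1 (0.50) and PGAM1 (0.20) rose, and PGAM1 lost its call without GDH1 siRNA replicate 2 or any 1 NC library.

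PHGDH, PSAT1, SHMT2 and MTHFD2 are known targets of ATF4, the transcription factor of the amino acid response, and all of them fell. The promoter windows of PHGDH, PSAT1 and MTHFD2 held no TGATGNAA, and that of MTHFD1L, which rose, held 1. ATF4 mRNA was at 307.4 ± 20.3 CPM in GDH1 siRNA and 375.1 ± 3.63 CPM in NC libraries (log2 fold change -0.29, SE 0.07, adjusted p = 0.0090, edgeR). It lost its call without GDH1 siRNA replicate 2 or NC replicate 3, and was at -0.17 with the GC and length correction. Of 13 tested regulators 5 fell and 2 rose, and MYC (-0.61) and CEBPB (-0.73) were among those that fell; CEBPB was at -0.37 with that correction. Of 10 amino acid response genes outside the pathway 6 fell and 3 rose, with a median of -0.73. ASNS, asparagine synthetase, was at 72.8 ± 3.63 CPM in GDH1 siRNA and 180.3 ± 18.9 CPM in NC libraries (log2 fold change -1.31). CHAC1, which breaks down glutathione, was at -2.30, the pseudokinase gene TRIB3 at -1.01 and STC2, which encodes a secreted glycoprotein, at 1.47. VLDLR (0.50) and ATF3 (0.45) were the others that rose, and SLC3A2 (0.05) did not pass. With the GC and length correction SLC3A2 was called higher (0.20, adjusted p = 3.28e-05, edgeR). Among the regulators DDIT3 was at 0.02 and did not pass. The protein level and activity of ATF4 were not measured, and its part in these changes was not tested.

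**Figure D4:**
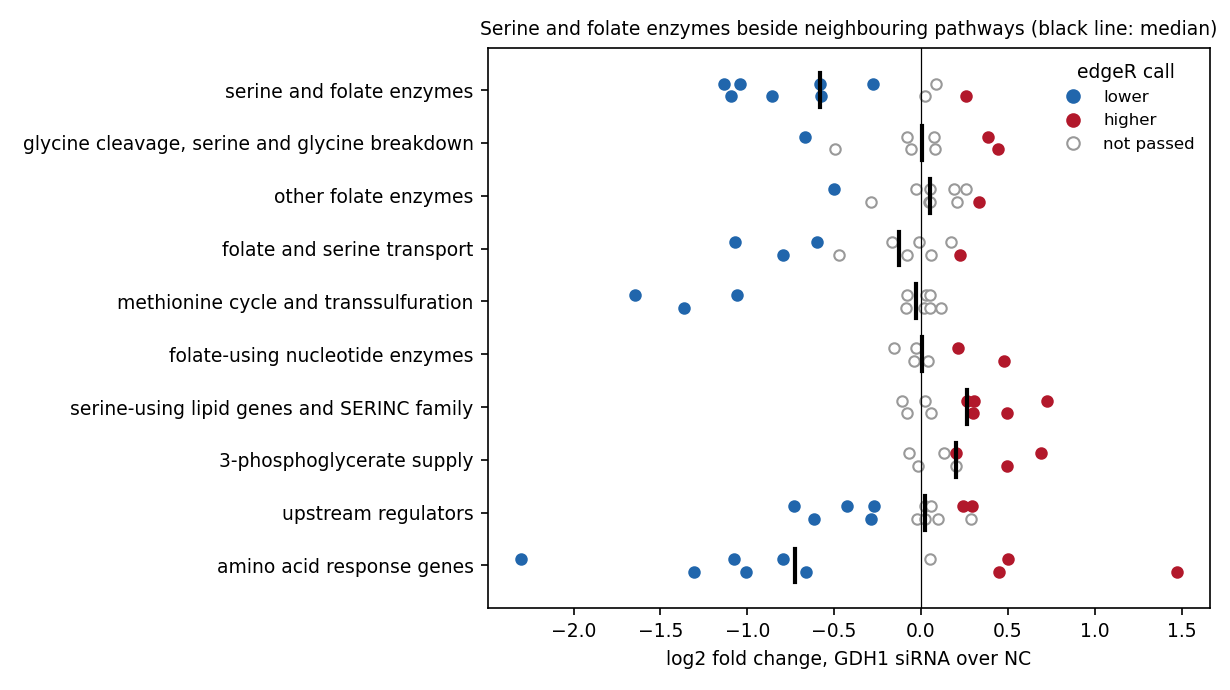
Each point is 1 tested gene, placed by its log2 fold change, GDH1 siRNA over NC, in rows for the 10 serine and folate enzymes and 9 neighbouring lists; blue points were called lower, red ones higher (edgeR adjusted p under 0.05), open ones did not pass, and a black line gives each list's median. The 10 enzymes have 7 blue points and a median of -0.58, and the 9 serine-using lipid genes and SERINC family genes have 5 red points and 0 blue ones. Over all tested symbols 13.1% were called lower and 13.0% higher.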

How the data were processed

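Total RNA of 6 LN229 libraries was sequenced. The deposited table holds whole-number counts per gene row with no normalization, as its values show, and the genome build is GRCh38.p14 per the submitters' processing notes. Aligner, counter and strand setting: not given in the sources used here. Groups and replicate numbers come from the titles. Of 28196 rows, 4956 are unnamed loci with 1.20 to 1.30% of counts; they stayed in the totals and tests. Rows of the same symbol were summed (1634 symbols had several), which left 24976. Symbols were filtered with filterByExpr, scaled by TMM and tested by quasi-likelihood in edgeR 4.0.16 (R 4.3.3; robust, two-sided). Adjustment followed Benjamini and Hochberg across 15638 symbols, with a threshold of 0.05. The test was checked on simulated data. Each SE was derived from the fold change and its F statistic; the prior count for log2 CPM was 2. Ratios used a pseudocount of 0.5 counts. Lengths and GC content came from GENCODE 29, from the longest principal transcript of each gene. The genes and lists were chosen with earlier results of these data known. In the text are all 10 enzymes, GLUD1, per list up to 4 called genes with the smallest p, and the 5 nearest profiles. TYMS, SFXN1, SLC25A32, SERINC1, VLDLR, ATF3, SLC3A2 and DDIT3 were picked with their values known. Some genes of the lists are not reported here. Precision rests on 3 libraries a group. Alternatives were RLE and upper quartile scaling, other filters, DESeq2 1.42.0, limma-voom (limma 3.58.1), unsummed rows, the replicate number as a block, each library left out, a threshold of 0.01, and removal of each library's loess trend (span 0.5) with GC content and length, which covered 84.3% of tested symbols and all 10 enzymes.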

Additional observations from a re-analysis of the deposited data

How the results depend on the processing

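Of 315 alternative values, 283 were rated as unchanged, by a rule that differed between kinds of result. Single genes had to keep their direction and side of the threshold. Counts could move within a set fold, so 2934 symbols called without NC replicate 2 rated as unchanged. Isoenzyme ratios had only to keep their sign. The mean of mitochondrial minus cytosolic enzymes had to stay within the larger SD of the 2 groups. PHGDH, PSAT1, PSPH, SHMT2, MTHFD2, ALDH1L2 and GLUD1 kept their direction and call in all 16 alternative fits and at the threshold of 0.01. PHGDH ranged from -1.13 to -0.88 on the log2 scale, MTHFD2 from -1.25 to -1.06 and SHMT2 from -0.63 to -0.49, and with the GC and length correction PHGDH was at -0.88, PSAT1 at -0.97 and 7 enzymes were lower and 1 higher. The count of symbols called was 4085, 1990 at an adjusted p under 0.01 and 2216 to 6236 with 1 library left out. At that stricter threshold 0 enzymes were higher (SHMT1 and MTHFD1L not called) and 10 genes of the other lists were. With 1 library left out, 6 to 7 enzymes were lower and 0 to 1 higher, and 10 to 22 other genes were higher. MTHFD2L, never called, changed sign: -0.14 with the GC and length correction, -0.14 with this and the replicate block, and down to -0.11 without GDH1 siRNA replicate 3 and -0.05 without NC replicate 1 (range -0.11 to 0.13). The mean of mitochondrial minus cytosolic enzymes differed by -0.39 without ALDH1L2. In the order of levels per length, 6 of 10 enzymes in GDH1 siRNA and 5 in NC libraries kept their place with the union of exons, and 4 in NC libraries with the mean transcript length. Same-numbered libraries did not deviate together (correlations 0.07, 0.02 and -0.02). With so few libraries this cannot decide whether the replicate numbers pair them. With the replicate block 7 enzymes were lower, 1 was higher and 4791 symbols were called, against 4085 without it. The causes of these shifts were not tested, apart from those set by the construction of an alternative.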
